A study of Mus musculus with 9 samples.

Results

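The cytotoxic lymphocyte genes described here are 10 protein-coding genes picked by symbol, Gzma, Gzmb, Prf1, Nkg7, Klrk1, Klrd1, Ncr1, Cd3e, Cd8a and Ifng. Each symbol stood on 1 row of the 34745 genes in the deposited table. Messenger RNA of mouse liver was sequenced in 9 libraries, in 3 groups of 3, namely WZB given before D-gal/LPS, D-gal/LPS alone, and control. The livers came from male C57BL/6 mice of 6 to 8 weeks. D-gal is the usual short form of D-galactosamine and LPS that of lipopolysaccharide, a pair used to model acute liver injury. The labels do not expand the letters WZB, and the series' design text speaks of GLUT1 inhibitors given as pretreatment. No dose, time or vehicle is stated in the sources used here. Whether each library is a separate animal is not stated either, so p-values measure the spread between these samples, which may be technical.

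Killer lymphocytes are natural killer (NK) cells and CD8 T cells. They store perforin, which opens the membrane of a target cell, and granzymes, proteases that enter through it and start cell death, in secretory granules. NK cells are set off by the balance of activating and inhibitory surface receptors and by cytokines of macrophages such as IL-12, IL-15 and IL-18, while T cells use the T cell receptor with CD3. Both release interferon-gamma, which activates macrophages. The liver holds many NK cells and related innate lymphoid cells among its resident lymphocytes.

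The libraries held between 15072509 and 18106895 counts. The tissue label fits the 8 hepatocyte markers, which summed to 134000 to 143000 CPM (counts scaled to library size) in WZB + D-gal/LPS livers, 102000 to 103000 CPM in D-gal/LPS livers and 84600 to 85700 CPM in control livers. The 10 cytotoxic genes together made 19.0 to 23.7, 52.8 to 61.9 and 3.07 to 4.59 CPM in the same order of groups, so they are rare transcripts. Levels are CPM on a scale that corrects for library composition (TMM), given for replicates 1, 2 and 3 of a group, and fold changes carry their standard error. In bulk liver, fewer cells of a type and less RNA per cell cannot be told apart. Adjusted p-values are from edgeR's quasi-likelihood test over 13583 genes, and a gene was called at 0.05. Of the 10 genes 9 passed the filter on low counts. Of these, Prf1, Klrd1, Cd3e and Ifng reached the filter's limit in all 3 libraries of the D-gal/LPS group alone, so counts over the genes that passed are a description.

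Gzmb, Gzma, Prf1 and Nkg7 were the genes called in both main comparisons, and their promoters are shown for that reason. Each stretch covers 250 bases before to 50 after the gene's start in RefSeq (GRCm38.p6), 5′ to 3′ on the gene's strand. Capitals mark matches to 7 motifs searched on both strands, AP-1 (TGANTCA), CRE (TGACGTCA), Runx (TGTGGT), T-box (GGTGTGA), GAS (TTCNNNGAA), ETS (AGGAAG) and the interferon-stimulated response element, ISRE (GAAA, any 2 bases, GAAA), and no 2 matches overlap in these promoters. The stretches lie at chr14:56262285-56262584, minus strand, at chr13:113100932-113101231, minus strand, at chr10:61297586-61297885, plus strand, and at chr7:43436888-43437187, plus strand.
Gzmb promoter: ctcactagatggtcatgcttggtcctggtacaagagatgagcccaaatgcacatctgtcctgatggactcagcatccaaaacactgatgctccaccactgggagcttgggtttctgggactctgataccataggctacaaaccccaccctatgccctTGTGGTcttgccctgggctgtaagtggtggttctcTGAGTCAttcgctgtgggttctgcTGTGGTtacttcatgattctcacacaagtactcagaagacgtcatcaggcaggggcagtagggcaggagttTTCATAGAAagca
Gzma promoter: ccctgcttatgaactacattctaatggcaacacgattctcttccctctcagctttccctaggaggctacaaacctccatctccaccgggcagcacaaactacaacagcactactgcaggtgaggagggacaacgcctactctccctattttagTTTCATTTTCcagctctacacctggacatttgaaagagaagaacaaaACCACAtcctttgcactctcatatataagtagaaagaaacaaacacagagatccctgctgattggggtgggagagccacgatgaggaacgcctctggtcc
Prf1 promoter: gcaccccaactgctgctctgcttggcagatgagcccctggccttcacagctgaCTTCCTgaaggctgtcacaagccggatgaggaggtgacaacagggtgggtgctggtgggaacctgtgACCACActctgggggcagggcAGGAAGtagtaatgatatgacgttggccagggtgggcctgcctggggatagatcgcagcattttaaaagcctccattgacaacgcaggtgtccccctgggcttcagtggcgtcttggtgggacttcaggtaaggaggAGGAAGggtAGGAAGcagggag
Nkg7 promoter: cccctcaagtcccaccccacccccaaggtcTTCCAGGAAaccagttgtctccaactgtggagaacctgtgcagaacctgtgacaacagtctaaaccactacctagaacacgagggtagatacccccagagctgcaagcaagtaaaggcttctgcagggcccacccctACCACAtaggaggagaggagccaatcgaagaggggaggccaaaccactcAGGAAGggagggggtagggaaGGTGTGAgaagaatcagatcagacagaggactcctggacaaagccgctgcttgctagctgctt
Positions are counted from the RefSeq start. For Gzmb that start lies 74 bases before the gene's start in the deposited table, for Nkg7 65 bases inside the gene and for Gzma 2 bases before it, and for Prf1 the starts are the same. The Gzmb promoter holds a Runx match that begins 93 bases before the start, an AP-1 match that begins 58 before it and another Runx match 34 before it. Its GAS match lies 37 bases after the start. In Gzma the Runx match begins 50 bases before the start and an ISRE match 97 before it. Prf1 has a Runx match 130 bases before the start and 4 ETS matches. Nkg7 has matches to GAS, Runx, ETS and T-box, the last of them 13 bases before the start. Of the 9 members with a promoter entry, 6 held the Runx letters, as did 16.8% of 32851 promoters of that length. The AP-1 letters stood in 2 of the 9 and in 7.81% of all promoters. The GAS letters stood in 3 and in 8.3%, ETS in 3 and in 35.4%, T-box in 1 and in 3.98%, ISRE in 1 and in 3.44%, and CRE in 0 and in 1.79%. Klrd1 had no entry. These matches are letters in a window and describe no binding.

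With D-gal/LPS most cytotoxic genes were higher than in control livers, with the largest log2 fold changes for Gzmb, Prf1 and Ifng. Of the 9 tested genes 8 rose, where 29.1% of all tested genes rose and 29.3% fell. None of the 9 had a fold change below 1, so none was lower at an unadjusted p either. The median log2 fold change was 2.52 over the 9 genes and -0.03 over all 13583. For 9 of the 10 genes every D-gal/LPS library lay above every control library, as for 32.4% of all tested genes, while 33.1% of all lay below without overlap. WZB + D-gal/LPS livers lay lower than D-gal/LPS livers for the granule genes, with 4 of 9 genes called lower, where 14.7% of all tested genes fell and 13.8% rose. All 9 had a fold change below 1, and 5 an unadjusted p under 0.05. The share of all tested genes at that unadjusted limit is not given here, so the 5 are a description. For 6 of the 10 every WZB library lay below every D-gal/LPS library, as for 24.0% of all tested genes, while 21.3% of all lay above without overlap. The median here was -1.24 over the 9 genes and -0.02 over all. Both comparisons use the same 3 D-gal/LPS libraries.

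**Figure D1:**
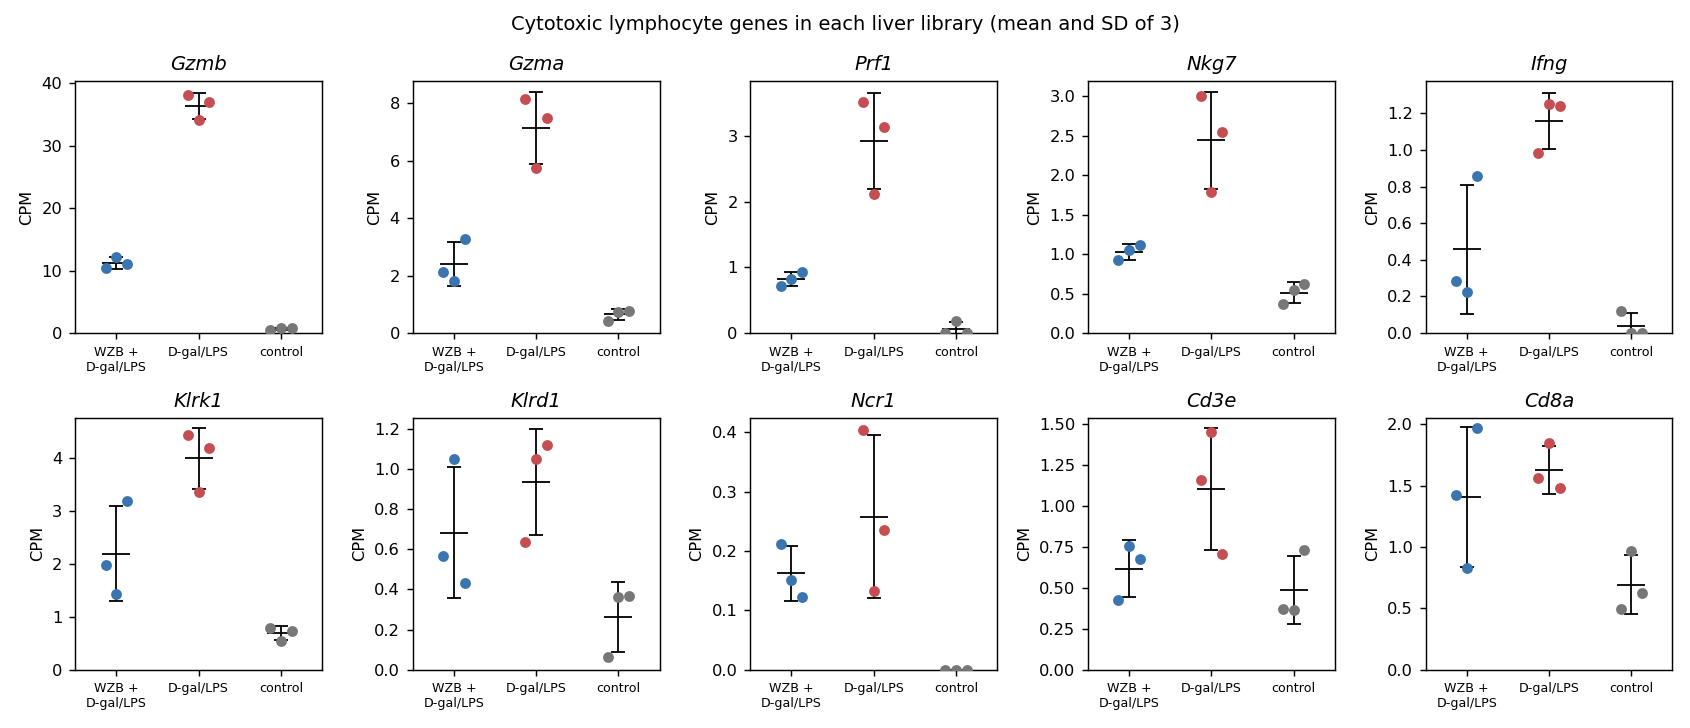
CPM of the 10 cytotoxic lymphocyte genes in each liver library, 3 points a group, with the mean as a bar and the SD as whiskers; each panel has its own axis from 0. Gzmb lies at 10.4 to 12.2 CPM with WZB, 34.1 to 38.1 CPM after D-gal/LPS and 0.43 to 0.784 CPM in control livers, while the groups overlap for Cd3e.

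Among the granule genes, Gzmb, the granzyme that cuts caspases in target cells, was the most abundant after injury. It had 147, 162 and 181 counts in WZB + D-gal/LPS libraries, 659, 517 and 627 in D-gal/LPS libraries and 7, 13 and 14 in control libraries. No library of one group reached the range of another, and the 3 libraries within a group lay close together. That is 11.2 CPM on average with WZB, 36.4 CPM after D-gal/LPS and 0.648 CPM in controls. Gzmb rose 55.1-fold with D-gal/LPS (log2 fold change 5.79 ± 0.19, edgeR adjusted p = 2.22e-11) and fell with WZB (-1.69 ± 0.14, edgeR adjusted p = 4.52e-06), to 30.9% of the D-gal/LPS mean. It lies at chromosome 14:56258856-56262260 on the minus strand (GRCm38, like all gene positions here).

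Gzma, a tryptase-like granzyme of NK cells and T cells, shared the pattern with a smaller rise. Its levels were 2.12, 1.81 and 3.26 CPM with WZB, 8.15, 5.73 and 7.49 CPM after D-gal/LPS and 0.43, 0.724 and 0.782 CPM in controls. The 3 groups stood apart, and WZB replicate 3 was the highest of its group. Gzma rose by 3.44 ± 0.32 log2 units with D-gal/LPS (edgeR adjusted p = 7.02e-07) and fell by 1.56 with WZB (-1.56 ± 0.27, edgeR adjusted p = 0.000951). The gene lies at chromosome 13:113093825-113100979 on the minus strand.

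Prf1 encodes perforin, the pore through which granzymes reach a target cell. It had 10, 11 and 15 counts with WZB, 61, 32 and 53 after D-gal/LPS and 0, 3 and 0 in controls. Only control replicate 2 held any Prf1 reads among controls. From the summed counts Prf1 was 51.2-fold higher after D-gal/LPS than in control livers, with an exact 95% counting interval of 17.2 to 251-fold (edgeR adjusted p = 9.57e-06). The fitted log2 fold change was 5.48 ± 0.66, and it became 8.56 without control replicate 2, where the control counts are all 0 and the fitted value is set by the prior count, and 4.89 without control replicate 3. With WZB, Prf1 fell by 1.82 log2 units (-1.82 ± 0.45, edgeR adjusted p = 0.00895), to 28.1% of the D-gal/LPS mean. Its position is chromosome 10:61297836-61304263, plus strand.

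Nkg7, a membrane protein of cytotoxic granules needed for their release, had 0.92, 1.05 and 1.11 CPM with WZB, 3, 1.78 and 2.54 CPM after D-gal/LPS and 0.369, 0.543 and 0.625 CPM in controls. The groups did not overlap. Nkg7 rose 4.69-fold with D-gal/LPS (log2 fold change 2.23 ± 0.37, edgeR adjusted p = 0.000178) and fell with WZB (-1.24 ± 0.35, edgeR adjusted p = 0.0168). The fall was not called without WZB replicate 1 (adjusted p = 0.0518), without D-gal/LPS replicate 1 (adjusted p = 0.0895) or without D-gal/LPS replicate 3 (adjusted p = 0.0579), by the same edgeR test. Nkg7 lies at chromosome 7:43437073-43438249 on the plus strand.

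Ifng, the gene of interferon-gamma, was read rarely. Its counts were 4, 3 and 14 with WZB, 17, 19 and 21 after D-gal/LPS and 2, 0 and 0 in controls. D-gal/LPS libraries were alike, WZB replicate 3 stood above the other two of its group, and 2 of 3 control libraries had none. Summed over libraries, Ifng was 30.0-fold higher after D-gal/LPS than in controls, with an exact 95% counting interval of 7.93 to 254-fold (fitted log2 fold change 4.65 ± 0.88, edgeR adjusted p = 0.000497). Without control replicate 1 the controls hold no count, and the fitted value, 7.23, depends on the prior count. Against D-gal/LPS the WZB libraries had a log2 fold change of -1.28 ± 0.61 that did not pass (edgeR adjusted p = 0.136), although the groups did not overlap. Ifng lies at chromosome 10:118441047-118445892 on the plus strand and overlaps the predicted gene Gm49751 on the same strand in GENCODE M21, so reads of both may be mixed.

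The activating receptors came next. Klrk1, the gene of NKG2D, which binds stress ligands on target cells, had 1.98, 1.43 and 3.19 CPM with WZB, 4.45, 3.36 and 4.19 CPM after D-gal/LPS and 0.799, 0.543 and 0.73 CPM in controls. WZB replicate 3 nearly reached the lowest D-gal/LPS library. Klrk1 rose by 2.52 ± 0.35 log2 units with D-gal/LPS (edgeR adjusted p = 3.23e-05). Its lower level with WZB, -0.85 ± 0.31, just missed the threshold (edgeR adjusted p = 0.0551). It passed without WZB replicate 3 (log2 fold change -1.22, adjusted p = 0.0186), without D-gal/LPS replicate 2 (-1.05, adjusted p = 0.0432) and without control replicate 2 (-0.85, adjusted p = 0.048) in the same edgeR test.

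Klrd1 encodes CD94, which pairs with NKG2 proteins to read non-classical MHC class I. It had 8, 14 and 7 counts with WZB, 11, 16 and 19 after D-gal/LPS and 1, 6 and 7 in controls. The D-gal/LPS libraries lay above every control library and overlapped the WZB libraries. Klrd1 rose by 1.78 ± 0.61 log2 units with D-gal/LPS (edgeR adjusted p = 0.0229), a call lost without D-gal/LPS replicate 2 (adjusted p = 0.0587), D-gal/LPS replicate 3 (adjusted p = 0.0746) or control replicate 1 (adjusted p = 0.0721). With WZB the log2 fold change was -0.47 ± 0.55 (edgeR adjusted p = 0.574). Klrk1 (chromosome 6:129610323-129623864, minus strand) and Klrd1 (6:129591782-129598775, plus strand) are neighbours in the NK gene complex.

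Ncr1, the gene of NKp46, an activating receptor that marks NK cells and group 1 innate lymphoid cells, did not pass the filter on low counts. It had 3, 2 and 2 counts with WZB, 7, 2 and 4 after D-gal/LPS and 0, 0 and 0 in controls. All 6 libraries of the injured groups held reads and no control did. The exact 95% counting interval for D-gal/LPS over control starts at 3.21-fold. Set against 3 counts over the control group, the limit that a count of 0 allows, the 13 counts after D-gal/LPS come to 4.56-fold, which leaves out their own counting error. The summed counts with WZB were 0.609 times those of D-gal/LPS after scaling, with an exact 95% counting interval of 0.206 to 1.64, so no difference was detectable at this depth. In a fit without the filter, the edgeR adjusted p was 0.0177 for D-gal/LPS against control and 0.76 for WZB + D-gal/LPS against D-gal/LPS. Its position is chromosome 7:4337724-4345164, plus strand.

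The T cell genes of the set had the smallest fold changes with D-gal/LPS. Cd3e, a chain of the CD3 complex, had 6, 10 and 11 counts with WZB, 20, 22 and 12 after D-gal/LPS and 6, 6 and 14 in controls. The groups overlapped, and D-gal/LPS replicate 3 lay within the control range. Its log2 fold change of 1.14 ± 0.49 with D-gal/LPS did not pass (edgeR adjusted p = 0.0599), and did pass without D-gal/LPS replicate 3 (adjusted p = 0.0435) or control replicate 3 (adjusted p = 0.0323). With WZB it was -0.82 ± 0.49 (edgeR adjusted p = 0.236). Cd3e (chromosome 9:44998743-45009590, minus strand) overlaps the antisense gene Gm48719 and the predicted gene Gm48720, and the sources used here do not give strandedness, so their reads cannot be told apart.

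Cd8a, the co-receptor of killer T cells that some dendritic cells also carry, had 20, 11 and 32 counts with WZB, 27, 28 and 25 after D-gal/LPS and 8, 16 and 12 in controls. The D-gal/LPS libraries lay above all controls, and the WZB libraries spread around them. Cd8a rose by 1.22 ± 0.41 log2 units with D-gal/LPS (edgeR adjusted p = 0.0215). That call was lost without D-gal/LPS replicate 2 (adjusted p = 0.0626), control replicate 1 (adjusted p = 0.0705) or control replicate 3 (adjusted p = 0.0615). With WZB the log2 fold change was -0.19 ± 0.39 (edgeR adjusted p = 0.756), and it was 0.06 without WZB replicate 2. The gene lies at chromosome 6:71373427-71379173 on the plus strand.

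**Figure D2:**
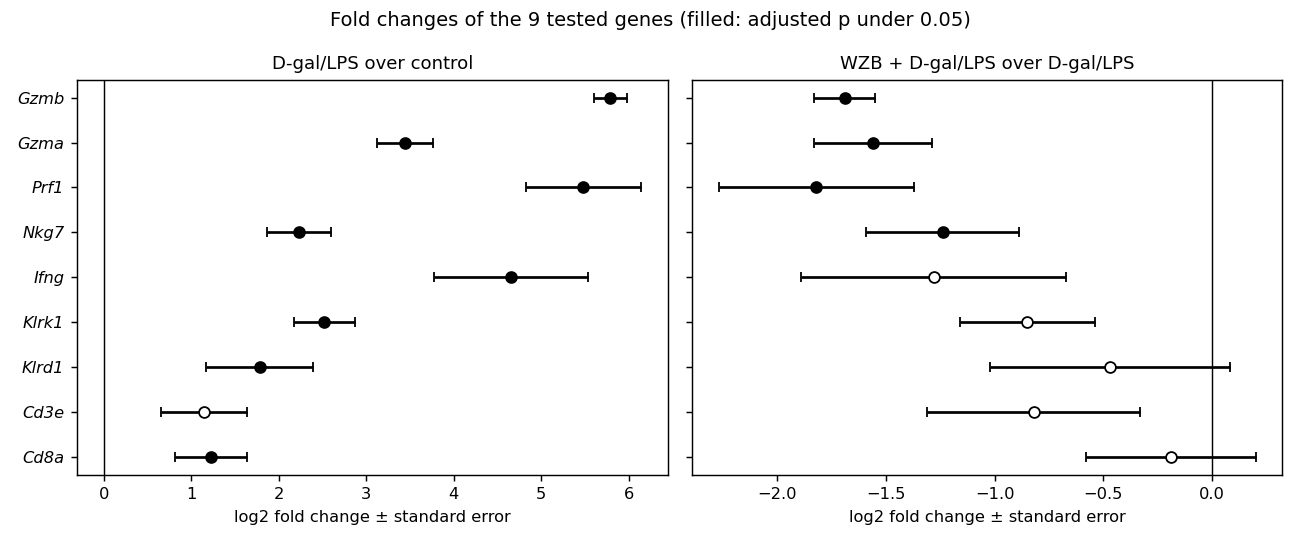
Log2 fold changes with standard errors of the 9 tested genes, D-gal/LPS over control on the left and WZB + D-gal/LPS over D-gal/LPS on the right; filled points passed an edgeR adjusted p of 0.05. Gzmb and Prf1 lie furthest right with D-gal/LPS, at 5.79 and 5.48, and only the 4 granule genes are filled with WZB.

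Compared with control livers, WZB + D-gal/LPS livers still held more of the cytotoxic transcripts. Of the 9 tested genes 7 were higher, where 32.6% of all tested genes were higher and 28.0% lower. For 8 of the 10 every WZB library lay above every control library, as for 35.0% of all tested genes, while 30.9% of all lay below without overlap. Gzmb was 17.0-fold above control (log2 fold change 4.09 ± 0.19, edgeR adjusted p = 1.34e-09), Gzma was higher by 1.88 ± 0.34 (edgeR adjusted p = 0.000293) and Klrk1 by 1.67 ± 0.36 log2 units (edgeR adjusted p = 0.00123). Prf1 was 14.3-fold higher from summed counts, with an exact 95% counting interval of 4.52 to 72.5-fold (edgeR adjusted p = 0.00097), and its fitted log2 fold change of 3.66 was 6.74 without control replicate 2, the only control with reads, and 3.06 without control replicate 3. Ifng was 12.5-fold higher, with an interval of 3.06 to 110-fold (edgeR adjusted p = 0.0102), and that call was lost without WZB replicate 3, the library with 14 of the group's 21 counts (adjusted p = 0.0755). Its fitted log2 fold change of 3.37 became 5.95 without control replicate 1, where the controls hold no count. Nkg7 (log2 fold change 0.98 ± 0.40, edgeR adjusted p = 0.0488) and Cd8a (1.02 ± 0.42, edgeR adjusted p = 0.0498) stood at the threshold. The Nkg7 call was lost whichever of the 9 libraries was left out (adjusted p = 0.0517 to 0.133). The Cd8a call held only without WZB replicate 2 or control replicate 2, and its adjusted p was 0.0657 to 0.232 without any other library. Without WZB replicate 3 the count fell to 4 of 9.

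Levels of different genes can be set side by side only per length, for which the deposited FPKM values were used. In WZB + D-gal/LPS livers Gzmb led with 6.77 to 7.5 FPKM, followed by Gzma with 1.8 to 3.36 FPKM and Nkg7 with 0.531 to 0.626 FPKM. After D-gal/LPS the order was Gzmb with 24.1 to 28.2 FPKM, Gzma with 6.55 to 9.73 FPKM, then Nkg7 (mean 1.58 FPKM) and Prf1 (mean 1.47 FPKM), which overlapped. In control livers Gzma (0.521 to 0.944 FPKM) and Gzmb (0.323 to 0.608 FPKM) overlapped at the top, with Cd3e (0.273 to 0.538 FPKM) and Nkg7 (0.245 to 0.414 FPKM) next. The genes below Nkg7 overlapped their neighbours in most steps, and Ncr1 was last in each group. Gzmb alone made 47.0% to 60% of the 10 genes' counts with WZB, 61.5 to 64.5% after D-gal/LPS and 14.0 to 17.6% in controls.

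Gzmb and receptor transcripts did not keep one proportion. Gzmb over the sum of Klrk1, Klrd1 and Ncr1, as a ratio of CPM within a library, was 3.77, 4.63 and 2.97 with WZB, 6.94, 7.49 and 6.67 after D-gal/LPS and 0.5, 0.867 and 0.667 in controls. The 3 groups did not overlap, and the mean ratio after D-gal/LPS was 10.4 times that in controls. The WZB mean was 0.539 times the D-gal/LPS mean. These ratios are not corrected for gene length, so only their change between groups is read, and no test was made on them.

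Gzmb over Gzma was 4.9, 6.75 and 3.42 with WZB, 4.67, 5.94 and 4.94 after D-gal/LPS and 1, 1.08 and 0.933 in controls. The injured groups overlapped each other and lay above every control. Cd3e over the receptor sum was 0.154, 0.286 and 0.18 with WZB, 0.211, 0.319 and 0.128 after D-gal/LPS and 0.429, 0.4 and 0.667 in controls. Here the controls were the highest group, without overlap. The control ratios rest on few reads, with Cd3e at 6, 6 and 14 counts. Ifng over the receptor sum averaged 0.139 ± 0.0786 with WZB, 0.226 ± 0.0483 after D-gal/LPS and 0.0476 ± 0.0825 in controls (SD, n = 3 each). That ratio rests on very few reads. The injured groups overlapped in it, and D-gal/LPS and control libraries overlapped as well when FPKM was used.

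**Figure D3:**
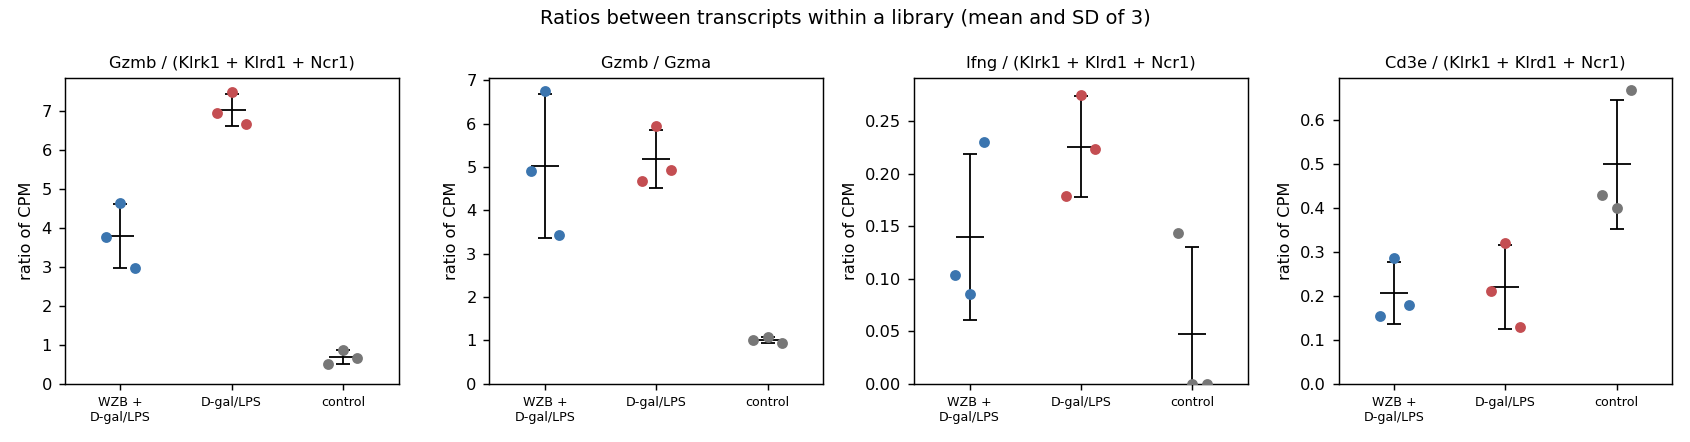
Ratios of CPM between transcripts within each library, 3 points a group with mean and SD, each axis from 0. Gzmb over the receptor sum separates all groups (2.97 to 4.63, 6.67 to 7.49 and 0.5 to 0.867 from left to right), while Gzmb over Gzma overlaps between the injured groups.

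The counts for the following lists stand beside 29.1% of all tested genes higher and 29.3% lower with D-gal/LPS, and 13.8% higher and 14.7% lower with WZB. Genes that reached the filter's limit through the D-gal/LPS group alone also made up part of several lists. They were 5 of 15 tested T cell genes, 4 of 14 activating cytokine and receptor genes and 2 of 10 transcription factors. They were also 3 of 6 markers of plasmacytoid dendritic cells, 1 of 2 tested inhibitory receptors and 1 of 9 tested B cell markers. Counts over these lists are a description. Other genes of granules and killing largely rose with D-gal/LPS. Of 19 such genes 13 were tested, and 10 rose with D-gal/LPS while 3 were not called (median log2 fold change 2.35). Tnfsf10, the death ligand TRAIL, rose by 3.16 ± 0.15 to 37.6 to 43 CPM, against 3.94 to 5.43 CPM in controls. Serpinb9, an inhibitor that protects cells from granzyme B, rose by 2.68 ± 0.16, and Stx11, a syntaxin of granule release, by 5.09 ± 0.34, or 5.89 without control replicate 1. With WZB 7 of the 13 fell and Lamp1, a lysosomal membrane protein, rose (median -0.68). Ctsc, the protease that activates granzymes, fell by 0.68 ± 0.09 (edgeR adjusted p = 0.000173) and Tnfsf10 by 0.87 ± 0.13 (edgeR adjusted p = 0.00039). Many of these genes, Ctsc, Lamp1 and Tnfsf10 among them, are also expressed by cells that are not lymphocytes. Fasl, the ligand of the death receptor Fas, named after its values were seen, was called with D-gal/LPS (2.91 ± 0.91, edgeR adjusted p = 0.0139) and had -0.17 ± 0.68 with WZB (edgeR adjusted p = 0.882).

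Of 25 further NK cell receptor genes 14 were too rare for the test. Of the 11 tested, 10 rose with D-gal/LPS and Cd160 was not called (median 2.99), but 4 of the 11 reached the filter's limit in all 3 libraries of the D-gal/LPS group alone, so the count is a description. With a filter of 1 CPM in 3 libraries 6 were called. Slamf7, a receptor of NK cells and other leukocytes, had 6.65, 4.9 and 8.42 CPM with WZB, 28.1, 22.5 and 26.8 CPM after D-gal/LPS and 0.553, 0.422 and 0.469 CPM in controls. It rose by 5.72 ± 0.25 with D-gal/LPS (edgeR adjusted p = 3.85e-10) and fell by 1.95 with WZB (-1.95 ± 0.18, edgeR adjusted p = 1.34e-05), and its groups stood far apart. Cd226, an adhesion receptor that triggers killing, had 4, 7 and 8 counts with WZB, 44, 28 and 36 after D-gal/LPS and 0, 8 and 2 in controls. The WZB libraries lay far below D-gal/LPS livers and overlapped the controls. Cd226 rose by 3.44 ± 0.64, or 5.09 without control replicate 2, and fell with WZB by 2.30 (-2.30 ± 0.58, edgeR adjusted p = 0.0099). It is among the 4 genes that reached the filter's limit through the D-gal/LPS group alone, so its calls are a description. Cd244 (2B4) rose by 4.45 ± 0.33, and its fall with WZB (-0.71 ± 0.24, edgeR adjusted p = 0.0406) was lost in each fit that left out a library of either injured group (adjusted p = 0.0607 to 0.135). Tyrobp, the DAP12 adaptor of NK and myeloid cells, rose by 2.30 ± 0.17 and had -0.30 ± 0.15 with WZB (edgeR adjusted p = 0.165). With WZB 3 of the 11 fell and 8 were not called (median -0.86), and limma on log2 FPKM with 0.1 or 1 added called 6.

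For T cells, 15 of 20 further genes were tested, of which 10 rose with D-gal/LPS and 5 were not called (median 1.83). With WZB 2 of 15 fell, a share near that of all tested genes, and 13 were not called (median -0.61), and 1 fell without WZB replicate 2, WZB replicate 3, D-gal/LPS replicate 1 or D-gal/LPS replicate 3. Limma called 4 lower on log2(FPKM + 0.1) and 6 on log2(FPKM + 1). Lck, the kinase that starts T cell receptor signalling and is also found in NK cells, rose by 2.60 ± 0.32 and fell by 1.20 with WZB (-1.20 ± 0.29, edgeR adjusted p = 0.00719). Cd247, the CD3 zeta chain that NK cells use too, had 8, 9 and 13 counts with WZB, 19, 25 and 23 after D-gal/LPS and 1, 0 and 0 in controls. From summed counts it was 70.5-fold higher after D-gal/LPS, with an exact 95% counting interval of 12.2 to 2830-fold. Cd247 reached the filter's limit in all 3 libraries of the D-gal/LPS group alone, so this rise is a description.

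Of the cytokines that activate killer cells and their receptors, 14 of 17 genes were tested, 11 rose with D-gal/LPS and Il15ra, named after its values were seen, fell by 0.96 (-0.96 ± 0.13, edgeR adjusted p = 3.79e-05). The list's median log2 fold change was 3.74. With WZB 11 of the 14 fell and 3 were not called (median -1.20), or 7 without D-gal/LPS replicate 1. Il27 and Il12b, described below, reached the filter's limit in all 3 libraries of the D-gal/LPS group alone. The calls on them and the counts over this list are thus a description. Il27, a subunit of the cytokine IL-27 from macrophages and dendritic cells, had 7, 8 and 9 counts with WZB, 79, 51 and 76 after D-gal/LPS and 2, 0 and 0 in controls. The WZB libraries lay between the other groups without overlap. Il27 was 108-fold higher after D-gal/LPS from summed counts, with an exact 95% counting interval of 29.6 to 901-fold, and fell by 2.90 log2 units with WZB (-2.90 ± 0.41, edgeR adjusted p = 0.000216). With WZB it stayed above control (3.59 ± 0.76, edgeR adjusted p = 0.00115). Its partner subunit Ebi3 had 6.72, 4.6 and 4.85 CPM with WZB, 14.7, 14 and 13 CPM after D-gal/LPS and 0.246, 0.121 and 0.521 CPM in controls. Ebi3 fell by 1.37 with WZB (-1.37 ± 0.23, edgeR adjusted p = 0.00064). It rose with D-gal/LPS by 5.47 ± 0.32, or 6.19 without control replicate 3. The receptor chains Il2rb, which transmits IL-2 and IL-15 signals in NK and T cells, and Il2rg, the common gamma chain, rose by 3.13 ± 0.25 and 4.48 ± 0.19 and fell by 1.18 (-1.18 ± 0.21) and 1.15 (-1.15 ± 0.16) with WZB. Il12b, the p40 subunit of IL-12, likewise named after its values were seen, had 2, 1 and 0 counts with WZB, 34, 17 and 38 after D-gal/LPS and none in controls (edgeR adjusted p = 0.00107 with WZB).

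Of the ligands of NKG2D, the receptor that Klrk1 encodes, Raet1d and Raet1e were higher with WZB. Of 5 such genes in the table, only these were tested. Ulbp1, too rare for the test, had 2, 1 and 3 counts with WZB, 7, 2 and 12 after D-gal/LPS and 2, 0 and 0 in controls, and H60b and H60c were at 0. Raet1d had 24.7, 27 and 23.2 CPM with WZB, 9.47, 9.16 and 9.38 CPM after D-gal/LPS and 13.2, 8.39 and 9.69 CPM in controls. The WZB libraries lay above all others, and the remaining groups overlapped. Raet1d rose by 1.42 ± 0.16 with WZB against D-gal/LPS (edgeR adjusted p = 4.03e-05) and had -0.16 ± 0.16 with D-gal/LPS (edgeR adjusted p = 0.427). Raet1e had 3.96, 6.71 and 5.9 CPM with WZB, 1.91, 2.24 and 3.54 CPM after D-gal/LPS and 2.89, 2.29 and 2.71 CPM in controls. It rose by 1.10 ± 0.28 with WZB (edgeR adjusted p = 0.0101), a call lost without D-gal/LPS replicate 2 (adjusted p = 0.0518). Genes of the Raet1 family are close copies, and the sources used here do not say how shared reads were counted, so each single value is uncertain.

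**Figure D4:**
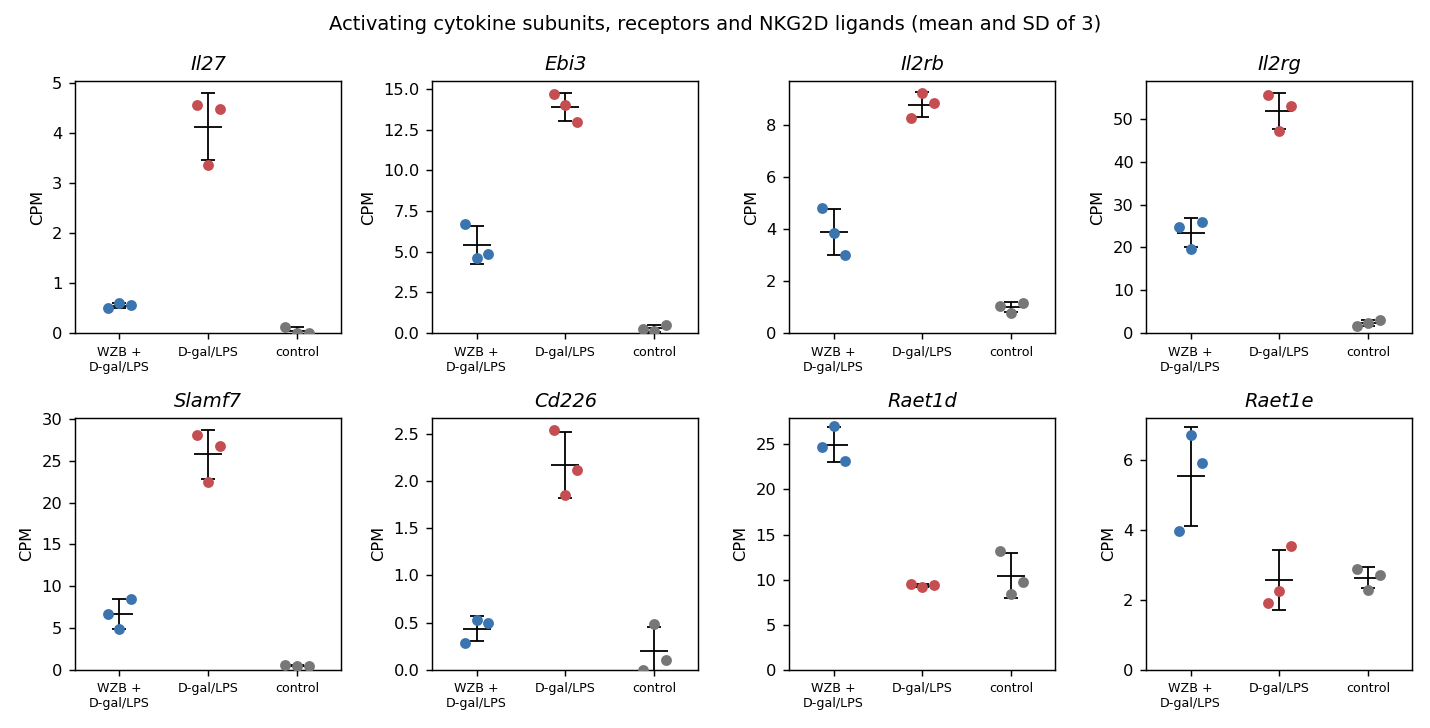
CPM of activating cytokine subunits (Il27, Ebi3), cytokine receptor chains (Il2rb, Il2rg), NK cell receptors (Slamf7, Cd226) and NKG2D ligands (Raet1d, Raet1e) in each library, 3 points a group with mean and SD, each axis from 0. The first 6 genes are highest after D-gal/LPS, and Raet1d is highest with WZB, at 23.2 to 27 CPM.

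On the side of the interferon-gamma response 14 of 15 genes were tested, and 13 rose with D-gal/LPS while Cxcl11 was not called (median 1.48). Jak2, a kinase of the interferon-gamma receptor, rose by 2.76 ± 0.11 and fell by 1.15 with WZB (-1.15 ± 0.10, edgeR adjusted p = 7.26e-06). Cxcl10, a chemokine for lymphocytes that other interferons also induce, had 267, 254 and 237 CPM with WZB, 561, 620 and 611 CPM after D-gal/LPS and 6.21, 2.77 and 4.9 CPM in controls. With WZB 7 of 14 fell and 7 were not called (median -0.62), and 11 fell with total-count scaling or on log2(FPKM + 1). Of 13 homing genes 10 were tested, 9 rose with D-gal/LPS and S1pr5, which lets NK cells leave tissues and was named after its values were seen, fell by 2.27 (-2.27 ± 0.36, edgeR adjusted p = 0.000108). With WZB 6 of the 10 fell and 4 were not called, or 3 fell without WZB replicate 2 or D-gal/LPS replicate 1. S1pr1, a receptor that lymphocytes share with endothelium, rose by 1.91 ± 0.12 and fell by 1.57 with WZB (-1.57 ± 0.12, edgeR adjusted p = 3.34e-06).

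Transcription factors of killer cells rose in part with D-gal/LPS and showed no call with WZB. Of 14 such genes 10 were tested, 6 rose with D-gal/LPS, and Id2, Tox and Tcf7 fell, a share near that of all tested genes. Irf8, which NK cells share with myeloid cells, rose by 3.04 ± 0.30 and Prdm1, the gene of Blimp-1, by 2.81 ± 0.41. Id2, which NK cell development needs but hepatocytes also express, fell by 1.10 (-1.10 ± 0.09, edgeR adjusted p = 3.02e-07). Tbx21, the gene of T-bet, named after its values were seen, had 18, 11 and 11 counts with WZB, 34, 26 and 32 after D-gal/LPS and 6, 2 and 3 in controls (with D-gal/LPS, edgeR adjusted p = 0.000119). Its groups did not overlap, yet the WZB difference of -1.0 ± 0.41 did not pass (edgeR adjusted p = 0.0843). Tbx21 reached the filter's limit in all 3 libraries of the D-gal/LPS group alone, so its call with D-gal/LPS and its lack of overlap are a description. With WZB 0 factors passed edgeR's adjusted p and 2 were lower at an unadjusted p under 0.05. The share of all tested genes at that unadjusted limit is not given here. DESeq2 called 0, voom 1, limma on log2 FPKM 2 or 3, total-count scaling 2 and a fit of only the groups compared 2, all lower, and 1 was called without D-gal/LPS replicate 1.

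Markers of other cells moved in the same livers. All 8 pan-leukocyte genes rose with D-gal/LPS and 5 fell with WZB, and their summed level was 232 to 331 CPM with WZB, 395 to 500 CPM after D-gal/LPS and 69.6 to 106 CPM in controls. Ptprc, the gene of CD45 on all leukocytes, rose by 3.20 ± 0.12 and fell by 0.65 with WZB (-0.65 ± 0.11, edgeR adjusted p = 0.000696). All 11 tested neutrophil markers of 12 rose with D-gal/LPS (median 6.19) and 7 fell with WZB, with sums of 280 to 315 CPM with WZB, 414 to 450 CPM after D-gal/LPS and 6.27 to 6.7 CPM in controls. The 6 markers of plasmacytoid dendritic cells all rose with D-gal/LPS, and 1, Tcf4, fell with WZB. They summed to 135 to 162 CPM with WZB, 132 to 151 CPM after D-gal/LPS and 88.5 to 96.9 CPM in controls. Most of that sum was Bst2, with means of 142, 129 and 88.8 CPM in the same order. The sum thus says little about the list's other markers. Basophils and mast cells can also express granzyme B, and of their 8 markers only Kit was tested. Kit, a receptor that other progenitor and lymphoid cells also carry, rose with D-gal/LPS (2.20 ± 0.15, edgeR adjusted p = 3.52e-08) and fell with WZB (-0.43 ± 0.14, edgeR adjusted p = 0.0333), and the fall was lost without any one of the WZB libraries, D-gal/LPS replicate 1 or D-gal/LPS replicate 3 (adjusted p = 0.0538 to 0.158). Ms4a2, a chain of the IgE receptor, had 1, 2 and 0 counts with WZB, 5, 4 and 2 after D-gal/LPS and 0, 0 and 0 in controls. The list summed to 13.8 to 16 CPM with WZB, 18.3 to 23 CPM after D-gal/LPS and 3.86 to 4.95 CPM in controls. Nearly all of that was Kit, with means of 14.7, 19.8 and 4.31 CPM in the same order. Mcpt8, Cpa3, Mcpt4 and Tpsb2 were at 0 after D-gal/LPS and Mcpt8, Fcer1a, Prss34 and Mcpt4 with WZB. Hepatocyte markers moved the other way with WZB, with 7 of 8 called higher and Apoa1 not called (median 0.58), among them Cyp2e1 by 1.01 ± 0.11 (edgeR adjusted p = 3.02e-05) and Ttr by 0.77 ± 0.09 (edgeR adjusted p = 4.42e-05). With D-gal/LPS 2 of the 8 rose and Tat fell (median -0.06), while 3 fell with upper quartile factors, total-count scaling or limma on either FPKM scale. The part of these cells in the changes of the cytotoxic genes was not tested.

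**Figure D5:**
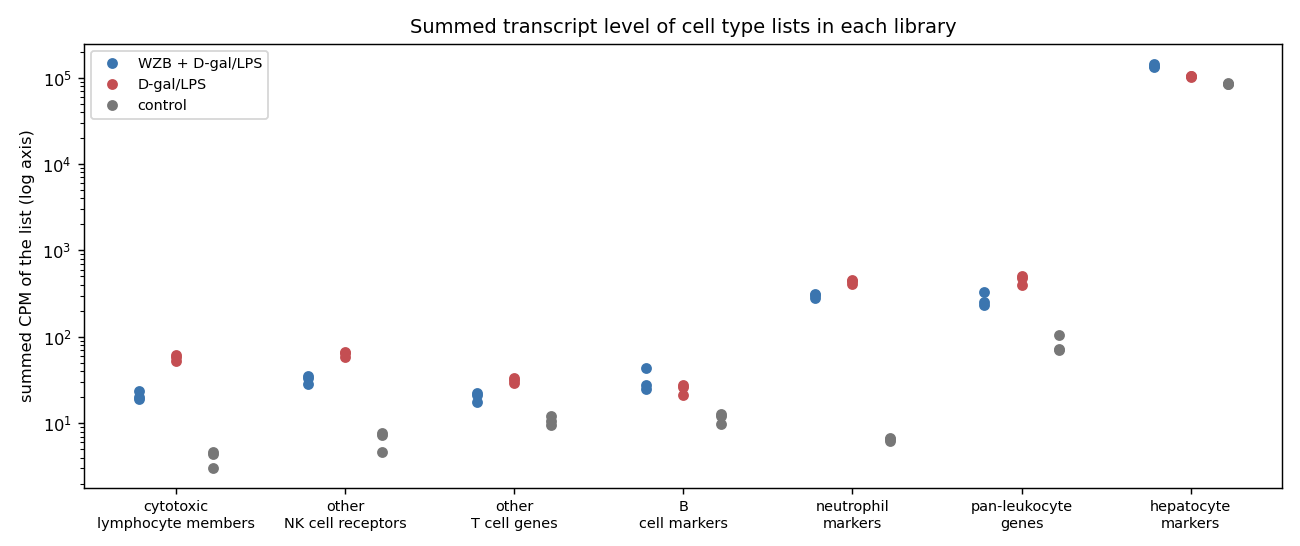
Summed CPM of 7 gene lists in each library on a log axis, with 3 points a group. The cytotoxic genes (19.0 to 23.7, 52.8 to 61.9 and 3.07 to 4.59 CPM from left to right) and the neutrophil markers peak after D-gal/LPS, and the B cell markers overlap between the injured groups.

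Likeness of pattern was measured as the distance over the pair of log2 fold changes, D-gal/LPS against control and WZB + D-gal/LPS against D-gal/LPS, among tested genes with a mean of at least 1 CPM over the 9 libraries. Genes with names of predicted genes, clones or accessions were left out, so 11672 genes were searched. The genes nearest to Gzmb were Phf11b (distance 0.069), Nr4a1 (0.141) and Thbd (0.193). Nearest to Prf1 were Slfn5 (0.072), Adamts9 (0.108) and Cd40 (0.128), and nearest to Ifng were Fap (0.017), Slc2a3 (0.064) and Trim30a (0.066). The first neighbour of Gzma lay further off than that of any other member, with Mamld1 (0.12), Prkar2b (0.166) and Gas7 (0.17). The nearest gene of Nkg7 was Itga2b (0.041), of Klrk1 Ubash3b (0.034) and of Klrd1 Zc3h12a (0.026). For Cd3e it was Ppp4r1 (0.023) and for Cd8a Ptrf (0.009). The distances leave out the standard errors of the 2 fold changes, which were 0.88 and 0.61 for Ifng and 0.41 and 0.39 for Cd8a. Even for Gzmb they were 0.19 and 0.14, so which genes come nearest, and in what order, is uncertain.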

How the data were processed

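The authors deposited 1 table with whole-number counts and FPKM (fragments scaled to gene length and library size) for each gene and library. Counts were used for every main test, and the deposited FPKM values for levels between genes and for 2 alternatives. GRCm38.p4 and mm10 are the builds, and R 4.1.2 and limma the tools, that the submitters' processing notes name. For aligner, counter, annotation release and strandedness: not given in the sources used here. Of 21 value columns 3 fitted no sample's labels and were left out. Counts and FPKM were proportional for all of 10194 genes compared, within 0.02 on the natural log scale.

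Depth was 15072509 to 18106895 counts a library. Intervals and floors cover counting error only. In edgeR 4.0.16 under R 4.3.3, filterByExpr kept 13583 genes (0.653 CPM in 3 libraries), TMM factors scaled the libraries, and all 9 entered 1 robust quasi-likelihood fit of 3 groups without covariates. P values were adjusted by Benjamini-Hochberg over all tested genes. Standard errors are approximate, the size of the log2 value over the root of edgeR's F. Over all tested genes together, replicates differed by more than counting noise (chi-square per gene 13.48 to 30.27). That value pools abundant and rare genes, so it does not give the spread of the cytotoxic genes.

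The members and lists were chosen with earlier results of these data known. The lists' counts cover the tested genes. The text names all members, then from each list up to 3 genes with the smallest adjusted p with D-gal/LPS and up to 2 with WZB, and the 3 nearest genes by pattern. Other names were chosen after their values were seen, as the text says for some and as holds for Lamp1, Apoa1, Cd160, Cxcl11, Tox, Tcf7, Ulbp1, Ms4a2 and the list genes named as being at 0. A few genes that this rule names are not reported here. Of the list genes Raet1a, Raet1b, Raet1c and H60a were not matched by symbol. Alternatives used DESeq2 1.42.0, limma 3.58.1 (voom with sample weights, and log2 FPKM with 0.1 or 1 added), other scalings and filters, a replicate block and each library left out. The test was first tried on simulated data. Only genes with higher control counts than any member were changed there, so that trial does not cover genes as rare as the members.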

Additional observations from a re-analysis of the deposited data

How the results depend on the processing

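The count of cytotoxic genes higher with D-gal/LPS stayed within 1.5 times of 8 in every alternative run, between 6 and 8 when 1 library was left out. The count lower with WZB, 4, was 1 when the test was against a log2 fold change of 1, 7 on log2(FPKM + 1), and 3 to 5 when 1 library was left out. The count higher in WZB + D-gal/LPS than in control livers, 7, was 3 against a log2 fold change of 1 and 4 to 6 when 1 library was left out. The Ifng to receptor ratio after D-gal/LPS was 4.74 times that of controls in CPM and 3.34 in FPKM, and its few reads limit it. Calls of Gzmb in all 3 comparisons, and of Gzma, Prf1, Klrk1, Nkg7 and Ifng with D-gal/LPS, held in all 21 alternatives. Prf1 and Ifng reached the filter's limit in all 3 libraries of the D-gal/LPS group alone, and most alternatives kept that filter. For these genes the agreement of the alternatives is thus a description. The call of Klrk1 with WZB, absent in the main test, was made in 11 of 21, among them DESeq2 (adjusted p = 0.0415) and total-count scaling (adjusted p = 0.0236).

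Replicate numbers are shared between groups, but same-numbered libraries did not deviate together over all tested genes (correlations of -0.063 to 0.034). These correlations cannot show whether such libraries shared a batch that moved some genes. With the replicate block the counts were 8 higher with D-gal/LPS, 5 lower with WZB and 5 higher in WZB + D-gal/LPS than in control livers. Over all genes, total-count scaling gave 850 higher and 3290 lower with WZB, against 1873 and 2001, with a median of all genes of -0.22, against -0.02. Log2(FPKM + 0.1) gave 899 and 3222, log2(FPKM + 1) gave 913 and 3384, and leaving out D-gal/LPS replicate 2 gave 1246 higher. Tests against a log2 fold change of 1 left 1770 higher and 858 lower with D-gal/LPS, 12 and 53 with WZB, and 1354 and 883 between WZB + D-gal/LPS and control livers. The cause of these shifts was not tested.

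Among the members and named genes, signs turned only in uncalled log2 fold changes. With 1 library left out, Cd8a with WZB ranged from -0.53 to 0.06, Raet1d with D-gal/LPS from -0.29 to 0.05, Raet1e with D-gal/LPS from -0.35 to 0.14 and Id2 with WZB from -0.14 to 0.1. Raet1e with D-gal/LPS was 0.04 with voom. Id2 with WZB was -0.02 with DESeq2 or its size factors, -0.16 with total-count scaling and -0.15 on either FPKM scale. Bst2 with WZB was -0.06 with total-count scaling and on both FPKM scales. Of the lists' counts 27 of 540 moved by over 1.5 times when 1 library was left out, most often those of B cell and basophil markers.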

Other observations

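Among B cell markers 9 of 10 were tested, and 5 rose with D-gal/LPS (median 1.11), or 2 without D-gal/LPS replicate 1, D-gal/LPS replicate 3 or control replicate 1, and 3 without control replicate 2 or 3. With WZB 1 rose, Ighm, and 8 were not called (median 0.15). Ighm, the constant region of IgM, had 26.2, 17.5 and 17.9 CPM with WZB, 14.7, 13.3 and 14.8 CPM after D-gal/LPS and 6.52, 6.58 and 7.45 CPM in controls. Its rise with WZB (0.53 ± 0.16, edgeR adjusted p = 0.025) was lost without WZB replicate 1 (adjusted p = 0.129), which was the highest library. It was also lost without D-gal/LPS replicate 1, 2 or 3 (adjusted p = 0.0593 to 0.147). With total-count scaling the edgeR adjusted p was 0.164. Limma gave an adjusted p of 0.182 on log2(FPKM + 0.1) and 0.175 on log2(FPKM + 1).

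Of the granzymes beyond Gzma and Gzmb, Gzmc had 12, 28 and 18 counts with WZB, 22, 6 and 32 after D-gal/LPS and 2, 0 and 0 in controls, and was called with D-gal/LPS (edgeR adjusted p = 0.000878) but not with WZB (adjusted p = 0.866). Gzmd, Gzme and Gzmg were at 0 in all 3 groups, and Gzmk had at most 3 counts in any library. Gzmm, not tested, had 22, 2 and 6 counts with WZB, 3, 1 and 0 after D-gal/LPS and 6, 0 and 0 in controls, so its highest library was WZB replicate 1. Among the Ly49 genes of the NK gene complex, Klra7 had 2, 6 and 4 counts with WZB, 3, 5 and 2 after D-gal/LPS and 1, 2 and 11 in controls, while Klra9 had 6, 0 and 4 with WZB, 7, 6 and 3 after D-gal/LPS and 0, 0 and 1 in controls. These families are close copies, so shared reads may have been split between them. The inhibitory receptors Btla and Lag3 were the 2 tested of 7 and rose with D-gal/LPS, Btla by 2.28 ± 0.34 and Lag3 by 1.44 ± 0.46 log2 units. Lag3 was not called without control replicate 2 (edgeR adjusted p = 0.0544). Of the 2, Lag3 reached the filter's limit in all 3 libraries of the D-gal/LPS group alone. The granzyme and Ly49 genes were chosen after their values were seen.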
